A study of Rattus norvegicus with 20 samples.

Results

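Dcn, Ogn, Lum, Bgn, Vcan and Sulf2 encode secreted proteins of the extracellular matrix that are associated with the stroma between the testis cords. They were followed here across the 10 groups of an array study of the embryonic rat testis. All probe sets that the platform annotation assigns to the 6 symbols were taken, which gave 13 of 31042. Testes of Sprague-Dawley rats were collected in utero at embryonic day 13 (E13), 14 (E14) or 16 (E16), with 2 arrays per group. In the vinclozolin groups the injection schedule of the dams was daily from E8 to E14, with 100 mg/kg of vinclozolin. This fungicide has metabolites that block the androgen receptor. Dams of the vehicle groups were injected with DMSO. The E13 testes were thus collected within the injection period, the E14 testes on its last day and the E16 testes after its end. For the cultures, E13 gonads were kept for 3 days with 50 µM vinclozolin in DMSO, with 0.5 µM flutamide, an androgen receptor blocker used as a drug, in ethanol, or with DMSO or ethanol alone. The opposite gonad of each embryo received the vehicle. Cultured gonads had their mesonephros attached, and it was removed before RNA was taken. The arrays are labelled as biological replicates, but separate animals or pools are not named, so a p-value measures the spread between arrays.

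A proteoglycan is a core protein with long sulfated sugar chains. Small leucine-rich proteoglycans such as decorin (Dcn), biglycan (Bgn), lumican (Lum) and osteoglycin (Ogn) bind collagen and shape its fibrils, and decorin and biglycan also bind growth factors of the TGF-beta family. Versican (Vcan) is a large chondroitin sulfate proteoglycan that binds hyaluronan and fills loose, developing connective tissue. Sulf2 is an enzyme that removes sulfate groups from heparan sulfate outside the cell, which alters the binding of signalling proteins to these chains. In the fetal testis the interstitium lies between the cords of Sertoli and germ cells and holds stromal cells, fetal Leydig cells, vessels and macrophages. Whole testes were measured, so the cell type that gave a signal was not observed.

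The genes lie at 5 places in the rat genome (RefSeq, GRCr8). Dcn (chromosome 7, 34167973 to 34208004) and Lum (chromosome 7, 34245323 to 34252510) are neighbours, followed by the related genes Kera and Epyc, to which the platform annotation assigns no probe set. Ogn (chromosome 17, 15238500 to 15259167) is followed by 2 other small leucine-rich proteoglycan genes, Omd (15266646 to 15274870) and Aspn (15286338 to 15310567). Bgn lies on chromosome X (156348633 to 156360797), Vcan on chromosome 2 (22497035 to 22595955) next to Hapln1, and Sulf2 on chromosome 3 (175241322 to 175323808).

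Promoter sequences of 300 bases (250 before and 50 after the transcription start, RefSeq, GRCr8) were found for Ogn, Lum, Vcan and Sulf2. Those of Ogn, Omd and Aspn are shown because these 3 neighbours each had their highest in utero signals at E16, and that of Lum because it was the member promoter that held the core of the androgen response element. Capitals mark the motifs found, and each sequence runs 5′ to 3′ on the strand of the gene.
Ogn (chr17:15258946-15259245, minus strand): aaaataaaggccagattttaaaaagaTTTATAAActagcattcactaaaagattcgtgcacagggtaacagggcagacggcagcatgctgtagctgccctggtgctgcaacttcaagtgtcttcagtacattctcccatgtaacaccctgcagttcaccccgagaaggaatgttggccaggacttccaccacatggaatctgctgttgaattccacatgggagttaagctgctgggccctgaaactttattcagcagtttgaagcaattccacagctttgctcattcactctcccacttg
Omd (chr17:15274821-15275120, minus strand): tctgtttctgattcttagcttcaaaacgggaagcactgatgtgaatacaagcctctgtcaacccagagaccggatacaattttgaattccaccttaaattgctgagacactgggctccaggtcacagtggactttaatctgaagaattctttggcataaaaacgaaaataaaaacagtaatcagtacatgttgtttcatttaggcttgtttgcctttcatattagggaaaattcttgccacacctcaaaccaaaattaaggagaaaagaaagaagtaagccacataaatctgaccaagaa
Aspn (chr17:15310420-15310719, minus strand): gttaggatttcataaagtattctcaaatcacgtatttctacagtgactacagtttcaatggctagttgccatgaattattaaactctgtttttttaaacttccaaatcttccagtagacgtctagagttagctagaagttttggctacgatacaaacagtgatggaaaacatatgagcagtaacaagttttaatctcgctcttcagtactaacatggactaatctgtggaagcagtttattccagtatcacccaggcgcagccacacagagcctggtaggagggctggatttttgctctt
Lum (chr7:34245456-34245755, plus strand): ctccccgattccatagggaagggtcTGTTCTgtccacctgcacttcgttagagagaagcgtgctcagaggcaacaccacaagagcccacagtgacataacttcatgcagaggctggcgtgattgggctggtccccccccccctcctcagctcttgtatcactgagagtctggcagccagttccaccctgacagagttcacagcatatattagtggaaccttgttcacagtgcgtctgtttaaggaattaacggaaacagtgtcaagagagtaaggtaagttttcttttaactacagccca
The promoters were searched for 4 motifs on both strands. AGAACA, the core hexamer bound by the androgen receptor and related receptors, occurred in 20.7% of 33469 promoters of this length, TGANTCA (AP-1) in 7.33%, TATAAA in 14.2% and GGGCGG in 33.1%. In the Ogn promoter the capitals hold TATAAA on both strands, overlapping, at positions -224 and -222 from the start. In the Lum promoter they mark TGTTCT, the reverse complement of AGAACA, at -225 from the start used for this window. The whole window lies within the span given above for Lum, so these letters lie inside the gene as placed there. The Vcan promoters, 2 overlapping windows, held GGGCGG on the reverse strand (CCGCCC). No searched motif was found in the windows of Sulf2, Omd and Aspn. A match describes letters and does not show that a factor binds there. The GC content was 46.0% for Ogn, 37.7% for Omd, 39.0% for Aspn and 50.7% for Lum, against 61.7% for Sulf2 and a median of 51.7% over all promoters.

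The deposited values are array signals on a linear scale, in which levels of different probe sets cannot be set against each other. Of the 13 probe sets, 12 reached the 40th percentile of their array on at least 2 arrays and were tested. The probe set left out, Vcan 1371233_at, read 0.9 to 30.8 and lay below that percentile on all 20 arrays. Vcan 1388265_x_at passed through the cultures: it reached the percentile on all 8 cultured arrays but in utero on 1 of 4 arrays at E13, 0 of 4 at E14 and 0 of 4 at E16. At E14, Lum reached it on 2 of 4 arrays, Ogn 1385248_a_at on 3 and Ogn 1390450_a_at on 1, and the other tested probe sets reached it on all 12 in utero arrays. The labelled tissue was checked against marker lists. After all arrays were brought to 1 trimmed mean, the 7 tested markers of the interstitial stroma had summed signals of 15032 to 23715 over the 20 arrays. Some arrays stood apart. E14 vehicle replicate 1 had the lowest E14 sum of 4 Sertoli cell markers (2108, against 5864 to 6793 on the other 3 arrays) and the highest of 7 mesonephric tubule markers (2117, against 959 to 1282). Of its tested probe sets, 4.12% differed over 2-fold from the mean of the other E14 arrays, against 0.719 to 1.85% on those. Both E13 arrays numbered 1 gave higher signals than both numbered 2 for all 7 mesonephric tubule markers, lower signals for 3 of 4 Sertoli markers, and a high signal of Xist, the RNA of an inactive X chromosome, of 896.0 with vinclozolin and 758.6 with vehicle, against 17.9 and 20.4. The list of sex-linked markers that held Xist also held the Y-linked Eif2s3y and Uty. Of its 3 tested genes, 2 were higher on both E13 arrays numbered 1 and 0 were lower. Their summed signal was 4515 with vinclozolin and 3772 with vehicle on the E13 arrays numbered 1, against 3746 and 3141 on those numbered 2. These sums exceed the Xist signals, so Y-linked signal was present on all 4 E13 arrays. The sex of the tissue was not tested. Results that rest on the 3 arrays that stood apart are given with and without them. Their part in the other results was not tested.

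The stage course separated the 6 genes. Dcn and Ogn were several-fold higher at E16 than at E13 and E14, Lum was lowest at E14, Bgn was highest at E14, and Vcan and Sulf2 moved little. Each change below is a log2 difference from limma with both treatments averaged at each stage, after 16 was added to the signal, and the adjusted p (Benjamini-Hochberg, over 22526 probe sets) was read against 0.05. In bulk tissue, fewer cells of a type and less RNA per cell cannot be told apart.

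**Figure D1:**
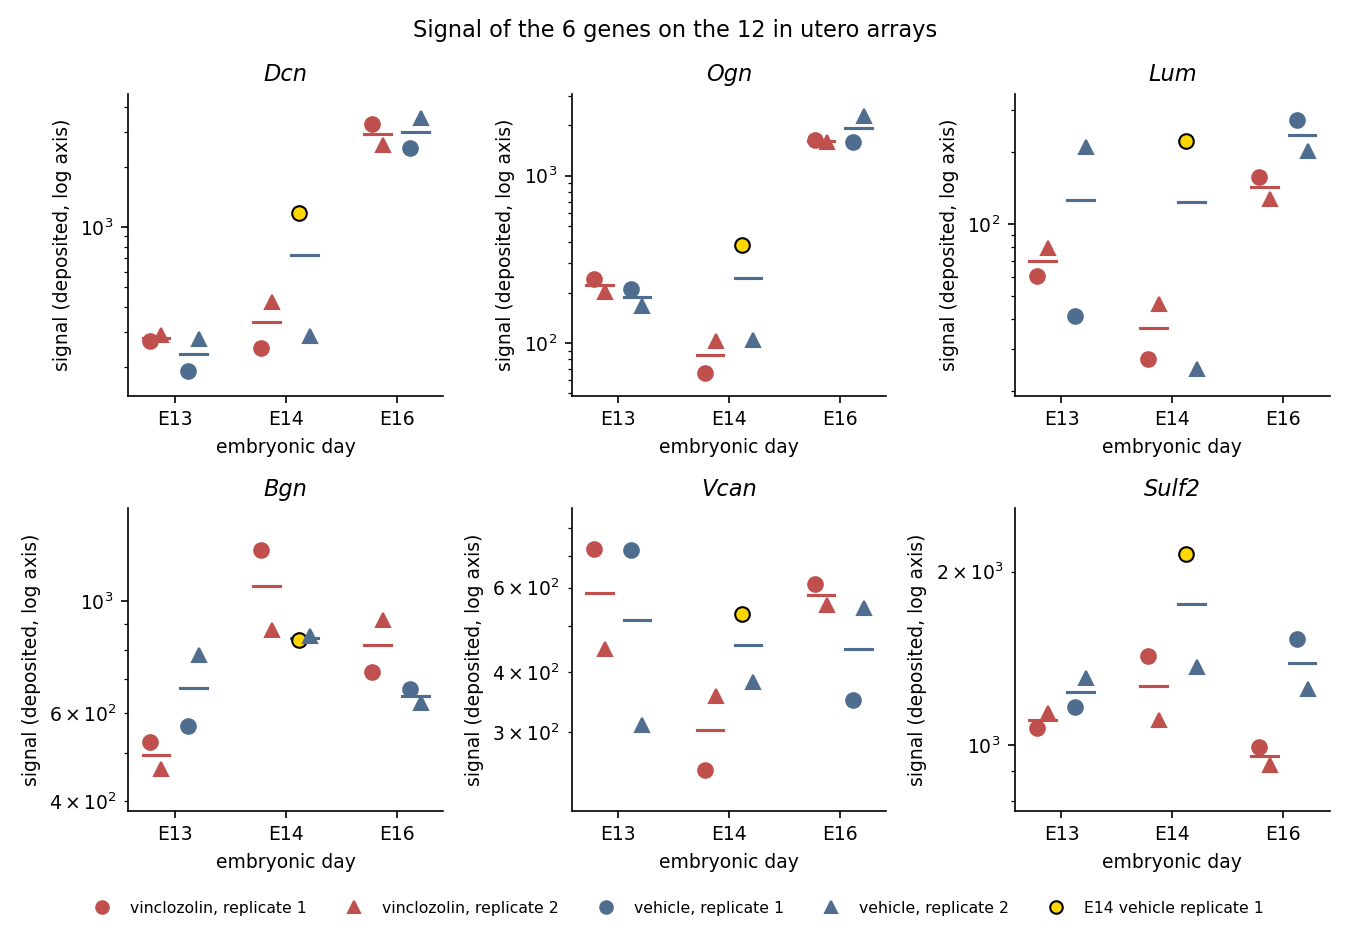
Signal of the 6 genes on the 12 in utero arrays (y axis, deposited signal on a log axis that differs between panels), by embryonic day (x axis), with vinclozolin left of vehicle, 1 point per array and a bar at each group mean. Dcn and Ogn were highest on the 4 E16 arrays, and E14 vehicle replicate 1, in yellow, was the highest E14 array for each gene except Bgn.

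Dcn, the fibril-binding decorin gene, gave 270.9 and 289.6 with vinclozolin and 190.7 and 274.8 with vehicle at E13. At E14 it gave 248.5 and 423.0 with vinclozolin, and 1172.0 and 286.8 with vehicle. At E16 it gave 3270.0 and 2574.3 with vinclozolin, and 2502.7 and 3508.6 with vehicle. Each E16 array was above each earlier array, while the treatments overlapped at E16. The change was 3.45 from E13 to E16 (SE 0.29, 10.9-fold, adjusted p = 5.37e-07) and 2.71 from E14 to E16 (SE 0.29, 6.52-fold, adjusted p = 5.38e-06). Between E13 and E14 Dcn differed by 0.75 (SE 0.29, adjusted p = 0.0716), and by 0.25 (SE 0.19, adjusted p = 0.372) without E14 vehicle replicate 1. On the arrays of E16, Dcn lay at the 97.9th to 98.7th percentile of all probe sets, against the 69.2nd to 77.8th at E13.

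Ogn, which encodes osteoglycin, has 4 probe sets, of which 1376749_at had the highest mean. It gave 240.7 and 202.0 with vinclozolin and 210.9 and 167.3 with vehicle at E13. At E14 it gave 66.5 and 103.2 with vinclozolin, and 385.5 and 105.0 with vehicle. At E16 it gave 1624.0 and 1577.7 with vinclozolin, and 1588.4 and 2255.9 with vehicle. Apart from E14 vehicle replicate 1, each E14 array was below each E13 array. The 4 probe sets rose from E13 to E16 by 3.00 to 3.18 (8- to 9.05-fold, SE 0.23 to 0.27), and from E14 to E16 by 3.31 to 3.59 (9.89- to 12-fold). The largest adjusted p of these 8 values was 5.67e-07. Between E13 and E14 they differed by -0.13 to -0.58, with adjusted p from 0.102 to 0.76. Without E14 vehicle replicate 1, 3 of the 4 Ogn probe sets were called lower at E14 than at E13. 1376749_at then fell by 1.00 (SE 0.17, adjusted p = 0.00106), 1385248_a_at by 0.91 (SE 0.22, adjusted p = 0.00827) and 1390450_a_at, below the filter percentile on these 3 E14 arrays, by 0.66, and 1383263_at stood at -0.53 with an adjusted p of 0.0773. Without the E13 arrays numbered 1 as well, 1376749_at alone kept the call (-0.87, SE 0.20, adjusted p = 0.00774), and 1385248_a_at, 1390450_a_at and 1383263_at stood at -0.64, -0.46 and -0.33 with adjusted p of 0.06, 0.129 and 0.312.

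Lum, which encodes the collagen-spacing lumican, gave lower signals. They were 60.4 and 79.7 with vinclozolin and 41.0 and 211.1 with vehicle at E13, and at E14 27.1 and 46.1 with vinclozolin and 223.6 and 24.7 with vehicle. At E16 Lum gave 158.4 and 127.0 with vinclozolin, and 272.5 and 202.7 with vehicle. Each E16 array was above each earlier array other than E13 vehicle replicate 2 and E14 vehicle replicate 1. Lum rose by 1.48 from E14 to E16 (SE 0.44, adjusted p = 0.0134), and by 2.12 (SE 0.36, adjusted p = 0.000379) without E14 vehicle replicate 1. The call was lost without E14 vehicle replicate 2 (0.84, adjusted p = 0.08), on the vinclozolin arrays alone (1.61, adjusted p = 0.0668) and on the vehicle arrays alone (1.35, adjusted p = 0.133). It was 1.01 higher at E16 than at E13 (SE 0.44, adjusted p = 0.125). No E14 array enters that comparison, and without E14 vehicle replicate 1 it kept its size. It was then called, by way of the spread, which is estimated over all groups. Without both E13 arrays numbered 1 its size was 0.43. From E13 to E14 the change was -0.46 (adjusted p = 0.474), and Lum was called without E14 vehicle replicate 1, at -1.10 (SE 0.36, adjusted p = 0.0396).

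Bgn, the gene of the X-linked decorin relative biglycan, had its highest mean signal at E14. At E13 it gave 525.7 and 463.1 with vinclozolin, and 564.4 and 782.4 with vehicle. At E14 it gave 1267.7 and 876.8 with vinclozolin, and 836.7 and 855.5 with vehicle, all above the E13 arrays. At E16 it gave 723.2 and 916.7 with vinclozolin, and 668.1 and 628.3 with vehicle. Bgn rose by 0.71 from E13 to E14 (SE 0.18, 1.63-fold, adjusted p = 0.0089), and by 0.71 (adjusted p = 0.0216) without E14 vehicle replicate 1. It differed by -0.37 from E14 to E16 (SE 0.18, adjusted p = 0.105). The rise from E13 was 1.07 on the vinclozolin arrays (SE 0.25, adjusted p = 0.01) and 0.34 on the vehicle arrays (SE 0.25, adjusted p = 0.464), and the vinclozolin effect on Bgn was not called as different between stages (adjusted p = 0.983). Bgn was called without both E13 arrays numbered 1 (0.64, adjusted p = 0.0435), and lost the call without these and E14 vehicle replicate 1 (0.64, adjusted p = 0.0654).

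Vcan, the hyaluronan-binding versican gene, showed no called change on its 4 tested probe sets with all arrays in the fit. The probe set with the highest mean, 1388142_at, gave 723.6 and 445.9 with vinclozolin and 718.0 and 310.8 with vehicle at E13. At E14 it gave 249.5 and 355.9 with vinclozolin, and 528.1 and 381.4 with vehicle. At E16 it gave 609.3 and 550.9 with vinclozolin, and 349.1 and 543.8 with vehicle. The stages overlapped, and the E13 arrays numbered 1 were both above those numbered 2. Over the 6 genes, 6 of the 12 tested probe sets were higher on both E13 arrays numbered 1 than on both numbered 2 (30.0% of all tested), and 2 were lower (25.9% of all). The 4 probe sets differed by -0.38 to -0.04 from E13 to E16, with adjusted p from 0.234 to 0.92, and the 95% interval of 1388142_at ran from -0.51 to 0.42. From E14 to E16, 1388142_at stood at 0.44 (SE 0.22, adjusted p = 0.121) with all arrays. It was called without both E13 arrays numbered 1, although no E13 array enters this comparison. Its size stayed at 0.44, and its SE, whose spread is estimated over all groups, fell to 0.15. Without these and E14 vehicle replicate 1 it stood at 0.55. On the vinclozolin arrays alone it rose from E14 to E16 by 0.92 (SE 0.31, adjusted p = 0.0372), and on the vehicle arrays alone it stood at -0.04 (SE 0.31, adjusted p = 0.94).

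Sulf2, the heparan sulfate 6-O-sulfatase gene, had high signals at each stage. It gave 1072.1 and 1134.6 with vinclozolin and 1164.6 and 1307.8 with vehicle at E13. At E14 it gave 1429.4 and 1104.3 with vinclozolin, and 2145.3 and 1368.4 with vehicle. At E16 it gave 992.7 and 923.3 with vinclozolin, and 1529.0 and 1251.5 with vehicle. The E14 vehicle replicate 1 array was the highest of the 12 in utero, and the stages otherwise overlapped. Sulf2 fell by 0.35 from E14 to E16 (SE 0.13, adjusted p = 0.0396), but stood at -0.19 (SE 0.12, adjusted p = 0.23) without E14 vehicle replicate 1. From E13 to E16 it differed by -0.02 (95% interval -0.29 to 0.25, adjusted p = 0.941).

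Over the 12 tested probe sets, 5 rose and 0 fell from E13 to E16, the 4 of Ogn and that of Dcn, where 18.7% of all tested probe sets were called (9.45% higher and 9.30% lower). From E14 to E16, 6 rose (Dcn, 4 of Ogn, Lum) and 1 fell (Sulf2), where 41.5% of all were called (18.3% higher and 23.2% lower). From E13 to E14, 1 rose (Bgn) and 0 fell, where 25.1% of all were called (13.1% higher and 12.0% lower). The median change of the 12 was -0.23 from E13 to E14, 0.96 from E14 to E16 and 0.67 from E13 to E16, beside medians over all probe sets of 0.07, -0.06 and -0.02. In 5 of the 12 each E16 array was above each earlier array, which held for 6.46% of all. The rise of Dcn and Ogn was called in each treatment taken alone: Dcn rose from E13 to E16 by 3.30 on the vinclozolin arrays and 3.60 on the vehicle arrays. Ogn 1376749_at rose by 2.77 on the vinclozolin arrays and 3.23 on the vehicle arrays. Without the 3 arrays that stood apart, Dcn rose by 3.31 from E13 to E16 (adjusted p = 5.08e-08).

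**Figure D2:**
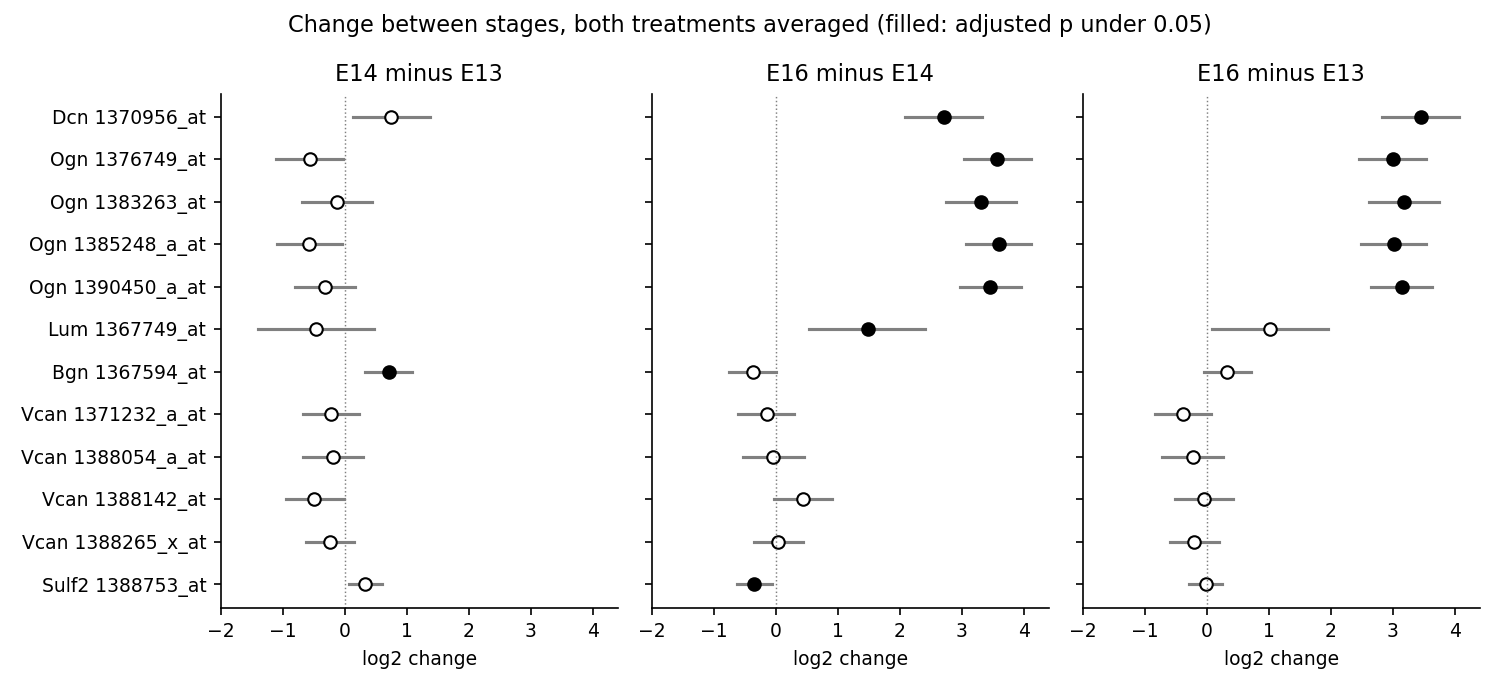
Change between stages of the 12 tested probe sets (x axis, log2 change, both treatments averaged), with 95% intervals as lines and filled points where the adjusted p was under 0.05. Dcn and the 4 Ogn probe sets lie near 3 in the comparisons with E16, and Bgn has the filled point from E13 to E14.

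Several markers of the interstitial stroma rose between E13 and E14, where Dcn and Ogn were not called. From E13 to E14, 4 of the 7 tested stroma markers rose, where 13.1% of all probe sets were called higher: the growth factor receptor gene Pdgfra by 0.99 (SE 0.10), the Wnt ligand gene Wnt5a by 1.39 (SE 0.17), the collagen gene Col1a1 by 1.19 (SE 0.17) and the Hedgehog effector gene Gli1 by 1.47 (SE 0.22), with a largest adjusted p of 0.000365. Without E14 vehicle replicate 1 these 4 stood at 0.96, 1.31, 1.09 and 1.49 and were called, with a largest adjusted p of 0.00123, and without all 3 arrays that stood apart they were called too (0.97, 1.40, 1.28 and 1.08). Nr2f2, Col3a1 and Tcf21 of the same list were not called from E13 to E14, at 0.09 (SE 0.10), 0.05 (SE 0.08) and -0.20 (SE 0.18). From E14 to E16, Tcf21 (0.63) and Wnt5a (0.55) rose, and Pdgfra stood at 0.08 (SE 0.10) and Col1a1 at 0.00 (SE 0.17). The changes of these genes and of the proteoglycan genes were not tested against each other. From E13 to E16 other lists moved too: the summed signal of 6 fetal Leydig cell markers was 13882 to 24012 on the E16 arrays and 828 to 1628 on the earlier arrays. That of 6 peritubular and smooth muscle markers was 2864 to 4083 at E16 and 804 to 1508 before. All 4 tested red cell markers rose, with sums of 13101 to 21097 at E16 and 892 to 11432 before, and 3 of the 7 mesonephric tubule markers fell, with sums of 589 to 809 at E16 and 959 to 2117 before. The part of cell composition in the changes of Dcn and Ogn was not tested.

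Across the 12 in utero arrays, Dcn and Ogn ran together (Pearson's r of log2 signal 0.93, and 0.94 without E14 vehicle replicate 1). Both rose to E16, but from E13 to E14 Dcn stood at 0.75 and Ogn 1376749_at at -0.57, neither called. Lum correlated with Dcn at 0.72 and with Ogn at 0.74. Bgn correlated with Dcn at 0.05 and with Vcan at -0.61, and Sulf2 with Dcn at -0.03. These values describe 12 arrays that share stages and treatments, and no p is given. The genes whose course was most like that of Dcn, of 11677 genes, were Rarres2 (r = 0.984), Hpgd (0.981) and Clec4a3 (0.981). For Ogn they were the selenium transport gene Selenop (0.985), Pla2g4a (0.979) and Lox (0.972), whose enzyme cross-links collagen. For Lum they were the matrix gene Smoc2 (0.948), Glt8d2 (0.922) and Rps28 (0.917). For Bgn they were Akt2 (0.921), Rcl1 (0.921) and Thra (0.918), and for Vcan Resf1 (0.953), Seh1l (0.938) and Dennd6a (0.928). For Sulf2 they were Dpp7 (0.928), Rhob (0.919) and Boc (0.913), which dropped to 0.834, 0.824 and 0.803 without E14 vehicle replicate 1.

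Other genes of the pathway, from lists of related functions, moved in both directions from E13 to E16. Shares over all probe sets were 9.45% called higher and 9.30% called lower. Of 6 tested genes of other small leucine-rich proteoglycans, 5 were called higher and 0 lower, but 4 of the 5 reached the filter percentile on no E13 array. Omd and Prelp passed the filter only through E14 or E16 arrays, so this count is not read against those shares. Fmod, the fibromodulin gene, which reached it on all 12 in utero arrays, rose by 0.49 (SE 0.14). Aspn, the asporin gene, gave 125.7 to 214.8 at E16 and 5.6 to 20.4 on the earlier arrays, and Omd, the osteomodulin gene, 62.6 to 76.8 against 10.2 to 17.9. In utero both reached the filter percentile at E16 only, on all 4 arrays. Omd reached it on 0 of 8 cultured arrays, so its difference followed from how it passed the filter, and no p is given for it. Aspn reached it on all 8 cultured arrays too. Set against that percentile of the E13 arrays, where the signals of both were lower, Aspn was at least 4.63-fold higher at E16 (adjusted p = 9.69e-08). Omd was at least 1.97-fold higher. Prelp and Podn, the remaining 2, reached the percentile on 1 and 2 of the 4 E16 arrays, and no size is given for them. Ogn, Omd and Aspn, whose promoters are shown above, thus had higher signals on each E16 array than on each earlier one, for Omd by way of the filter. The fourth gene of that place on chromosome 17, Ecm2, was not tested because its signal was low.

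Among 5 tested genes of hyalectans and link proteins, 0 rose and 1 fell: Hapln1, the link protein gene next to Vcan, which ties such proteoglycans to hyaluronan, by 1.68 (SE 0.25, adjusted p = 0.000205), with 2 of 4 E16 arrays at or above the filter percentile. Among 13 genes of heparan sulfate proteoglycans and related enzymes, the family that holds the substrates of Sulf2, 0 rose and 5 fell. The syndecan genes Sdc4 (-0.81, SE 0.13) and Sdc1 (-0.48, SE 0.12), the collagen XVIII gene Col18a1 (-0.75, SE 0.18) and the glypican genes Gpc2 (-0.64, SE 0.15) and Gpc6 (-0.52, SE 0.13) fell. From E13 to E14, 7 of these 13 rose and 2 fell, where 13.1% of all probe sets were called higher and 12.0% lower. From E14 to E16, 2 rose and 9 fell, where 18.3% were called higher and 23.2% lower. Of 28 genes of glycosaminoglycan chain synthesis 3 rose and 3 fell, shares near those over all probe sets, with Extl3 (-0.97, SE 0.13) and Hs2st1 (-0.57, SE 0.12), of heparan sulfate synthesis, lower, and Dsel (0.76, SE 0.18), of dermatan sulfate synthesis, and Extl2 (0.52, SE 0.15) higher. Fam20b fell by 0.50 (SE 0.14) and the sulfate donor gene Papss2 rose by 0.53 (SE 0.16). Of 5 proteases that cut versican, Adamts5 rose by 1.18 (SE 0.18) and Adamts9 fell by 0.55 (SE 0.12). Of 5 genes of hyaluronan synthesis, receptors and breakdown, the synthase gene Has2 rose by 0.76 (SE 0.22). The median changes of these 5 lists were 0.06, -0.31, -0.03, 0.05 and 0.08, beside -0.02 over all probe sets. In the treatment comparisons, 0 genes of the 6 lists were called.

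E14 vehicle replicate 1 carried high signals of the small proteoglycans. It was the highest of the 4 E14 arrays for 10 of the 12 tested probe sets, all but Bgn and Vcan 1388265_x_at, which held for 29.4% of all tested probe sets. Its Dcn signal of 1172.0 was 3.63-fold the mean of the other 3 (248.5 to 423.0), on the log2 scale after 16 was added. Its Lum signal of 223.6 stood beside 24.7 to 46.1, of which 2 lay below the filter percentile, and its Ogn 1390450_a_at signal of 106.8 beside 31.9 to 33.8, all 3 below it, so that no fold is given for either. Ogn 1376749_at stood at 3.79-fold and 1383263_at at 3.64-fold, Sulf2 at 1.65-fold, Vcan 1388142_at at 1.6-fold and Bgn at 0.853-fold. Among all tested probe sets, the excess of Dcn, Ogn and Lum lay at the 98.9th to 99.9th percentile.

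Other markers were high on the same array. All 7 mesonephric tubule markers and all 8 immediate early response genes were highest there, with sums of 2117 against 959 to 1282 and of 7064 against 1703 to 2201. All 4 tested red cell markers (11432, against 3145 to 4600), 5 of 6 macrophage markers (813, against 421 to 477) and 5 of 7 stroma markers (23623, against 19357 to 20189) were also highest. The 1 tested germ cell marker was lowest (119, against 417 to 502). The part of each of these in the excess of Dcn, Ogn and Lum was not tested.

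**Figure D3:**
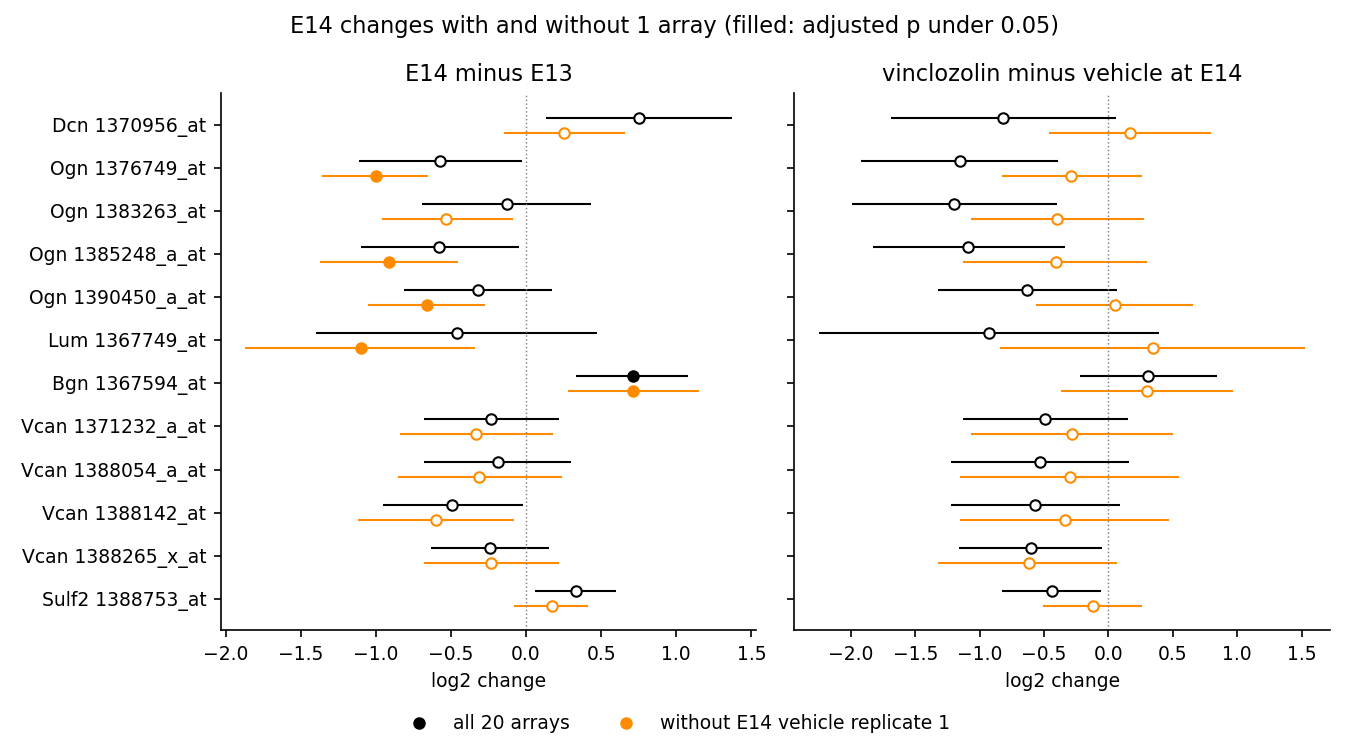
Change from E13 to E14 (left) and vinclozolin minus vehicle at E14 (right) on the log2 scale (x axis) with 95% intervals, with all 20 arrays (black) and without E14 vehicle replicate 1 (orange), and filled points where the adjusted p was under 0.05. Without that array the Ogn and Lum points move left in the stage comparison, and in the treatment comparison Dcn, Ogn and Lum move towards or past 0.

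Leaving out this array changed the E13 to E14 comparison of the 12 probe sets from 1 call to 5, where 21.3% of all probe sets were then called: Bgn was higher, and 3 Ogn probe sets and Lum were lower. Without the other vehicle array of E14, replicate 2, the calls were 3, all higher (Dcn at 1.24, Bgn at 0.70 and Sulf2 at 0.49), where 19.5% of all were called. On the vinclozolin arrays alone, which hold neither, 4 were called (16.2% of all). Bgn was higher, and Ogn 1376749_at (-1.25, SE 0.36, adjusted p = 0.0273), Ogn 1385248_a_at (-1.24, SE 0.35, adjusted p = 0.0256) and Vcan 1388265_x_at were lower, the last with both E14 arrays below the filter percentile, so that its size is not given. On the vehicle arrays alone 0 were called (2.93% of all).

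The antiandrogens were compared with their vehicles at each stage and in culture. No probe set of the 6 genes was called in any of these comparisons. Averaged over the stages, 0 of the 12 were called (0% of all tested), and 2 had an unadjusted p under 0.05 (4.10% of all). Sulf2 stood at -0.38 (SE 0.10, 95% interval -0.60 to -0.15, adjusted p = 0.998) and Ogn 1385248_a_at at -0.45 (SE 0.20, adjusted p = 0.998). The median of the 12 was -0.26, beside 0.01 over all probe sets. The Sulf2 difference was -0.16 at E13, -0.44 at E14 and -0.52 at E16 (SE 0.18 each). At E16 its vinclozolin arrays (992.7 and 923.3) were both below the vehicle arrays (1529.0 and 1251.5), and the adjusted p was 0.615. Without E14 vehicle replicate 1 the average was -0.27 (SE 0.09).

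At E13, 0 of the 12 were called (0% of all) and 0 had an unadjusted p under 0.05 (1.78% of all). At E16, 0 were called (0% of all) and Sulf2 alone had an unadjusted p under 0.05 (6.69% of all). The intervals left room for sizeable effects: at E16 Dcn differed by -0.03 (95% interval -0.91 to 0.85) and Lum by -0.67 (-1.99 to 0.65). Both vinclozolin arrays of E16 were below both vehicle arrays for 5 of the 12 probe sets (3 of Ogn, Lum and Sulf2), against 14.9% of all tested, and above both for 3 (Bgn and 2 of Vcan), against 24.3% of all.

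At E14, 0 of the 12 were called (0.00444% of all, 1 probe set) and 5 had an unadjusted p under 0.05 (5.50% of all), namely 3 of Ogn, Sulf2 and Vcan 1388265_x_at, which was below the filter percentile on all 4 arrays. Ogn 1376749_at differed by -1.15 (SE 0.36), with 66.5 and 103.2 with vinclozolin and 385.5 and 105.0 with vehicle, and its adjusted p was 0.888. Dcn differed by -0.82 (SE 0.41) and Lum by -0.93 (SE 0.63). Without E14 vehicle replicate 1, Ogn 1376749_at stood at -0.29 (95% interval -0.83 to 0.26), Dcn at 0.17 (-0.46 to 0.80) and Lum at 0.35 (-0.84 to 1.53), with 0 called (0% of all). With 1 vehicle array left, the SE and p take its spread from the other groups. The same holds with replicate 1 as the 1 vehicle array, the array already seen to be high for these genes, where 5 were called lower (1.21% of all), Dcn by 1.80 (SE 0.30, adjusted p = 0.00897) and the 4 Ogn probe sets by 1.30 to 2.02. The size of the E14 difference of Dcn, Ogn and Lum thus rested on 1 array. The test that the vinclozolin effect differs between stages called 0 of the 12 (0% of all), with 3 at an unadjusted p under 0.05 (4.46% of all), namely Ogn 1376749_at, Ogn 1383263_at and Vcan 1388265_x_at, and a smallest adjusted p of 0.983.

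In culture, 0 of the 12 were called with vinclozolin (0% of all) and 0 with flutamide (0% of all), and 0 had an unadjusted p under 0.05 in either (2.71% and 2.19% of all). Dcn gave 844.6 and 1190.2 with vinclozolin and 1447.4 and 1257.5 with DMSO, a difference of -0.42 (SE 0.41, 95% interval -1.30 to 0.45). It gave 667.4 and 587.2 with flutamide and 526.5 and 562.0 with ethanol, a difference of 0.20 (SE 0.41, -0.68 to 1.07). The 2 differences had opposite signs, and both intervals included 0. Vcan 1388054_a_at differed by -0.59 with vinclozolin (SE 0.33) and -0.15 with flutamide (SE 0.33). The compounds were given at different concentrations and in different vehicles. The vinclozolin effect minus the flutamide effect was called for 0 of the 12 (0% of all), with 0 at an unadjusted p under 0.05 (2.50% of all), and for Dcn it was -0.62 (SE 0.59, 95% interval -1.86 to 0.62). A p above the threshold does not show that the compounds act alike or that they had no effect.

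**Figure D4:**
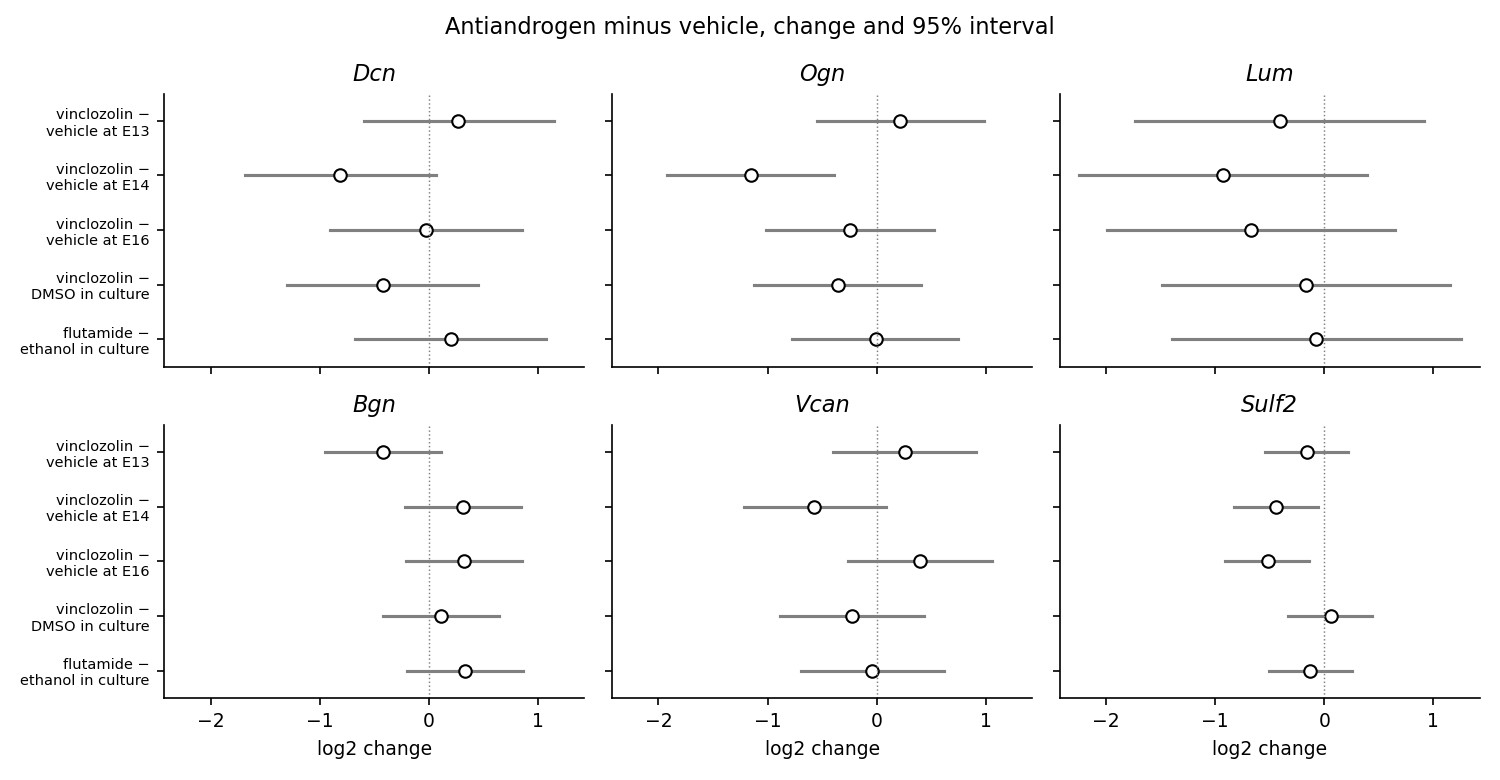
Antiandrogen minus vehicle for the probe set of highest mean of each gene (x axis, log2 change), with 95% intervals, at 3 stages in utero and in 2 cultures (y axis), all open because no adjusted p was under 0.05. The E14 points of Dcn, Ogn and Lum, at -0.82, -1.15 and -0.93, lie farthest to the left in their panels.

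Levels in culture were compared with in utero levels as a description. The arrays of the 2 cultures and of the in utero experiment were scaled separately, so they were brought to 1 trimmed mean first, and the set of arrays and the condition cannot be told apart. After 3 days, Dcn was between its E13 and E16 levels: 1394 and 1211 with DMSO and 1033 and 1103 with ethanol, against 191 and 275 in E13 and 2503 and 3508 in E16 vehicle testes. The cultured vehicle testes were thus 2.28 above E13 and 1.32 below E16 on the log2 scale, 34.4% of the way between the mean signals. Ogn 1376749_at gave 283 and 261 with DMSO and 248 and 316 with ethanol, against 211 and 167 in E13 and 1588 and 2256 in E16 vehicle testes. The 4 Ogn probe sets stood at -0.452 to 7.81% of the way. So Dcn, which rose to E16 with Ogn in utero, was apart from it in culture.

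Vcan was higher in culture than at both stages in utero. 1388142_at gave 966 and 823 with DMSO and 893 and 932 with ethanol, against 718 and 311 in E13 and 349 and 544 in E16 vehicle testes. The tested Vcan probe sets other than 1388265_x_at were 0.83 to 0.92 above E13. 1388265_x_at was below the filter percentile on both E13 vehicle arrays and passed the filter through the cultures. Its place above E13 and E16 followed from that. Lum differed between the cultures, at 74.9 and 109 with DMSO and 307 and 300 with ethanol, against 41.0 and 211 in E13 and 272 and 203 in E16 vehicle testes. Bgn was 0.51 below E13 and 0.48 below E16, and Sulf2 0.28 above E13 and 0.12 above E16. Of the 12 probe sets, 7 had all 4 cultured vehicle arrays above both E13 vehicle arrays, against 22.6% of all tested. 6 had them all below both E16 arrays (17.2% of all) and 4 all above (26.7% of all). The 7 above E13 were Dcn, the 4 of Vcan and 2 of the 4 of Ogn, among them the Ogn probe set of highest mean. Vcan 1388265_x_at counts among these 7, and among the 4 above E16, by way of the filter. The interstitial stroma sum was 17718 and 15032 with DMSO and 21856 and 21944 with ethanol, and that of the immediate early response genes 1554 and 1465 with DMSO and 9446 and 9490 with ethanol. The part of either in the Lum difference was not tested.

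**Figure D5:**
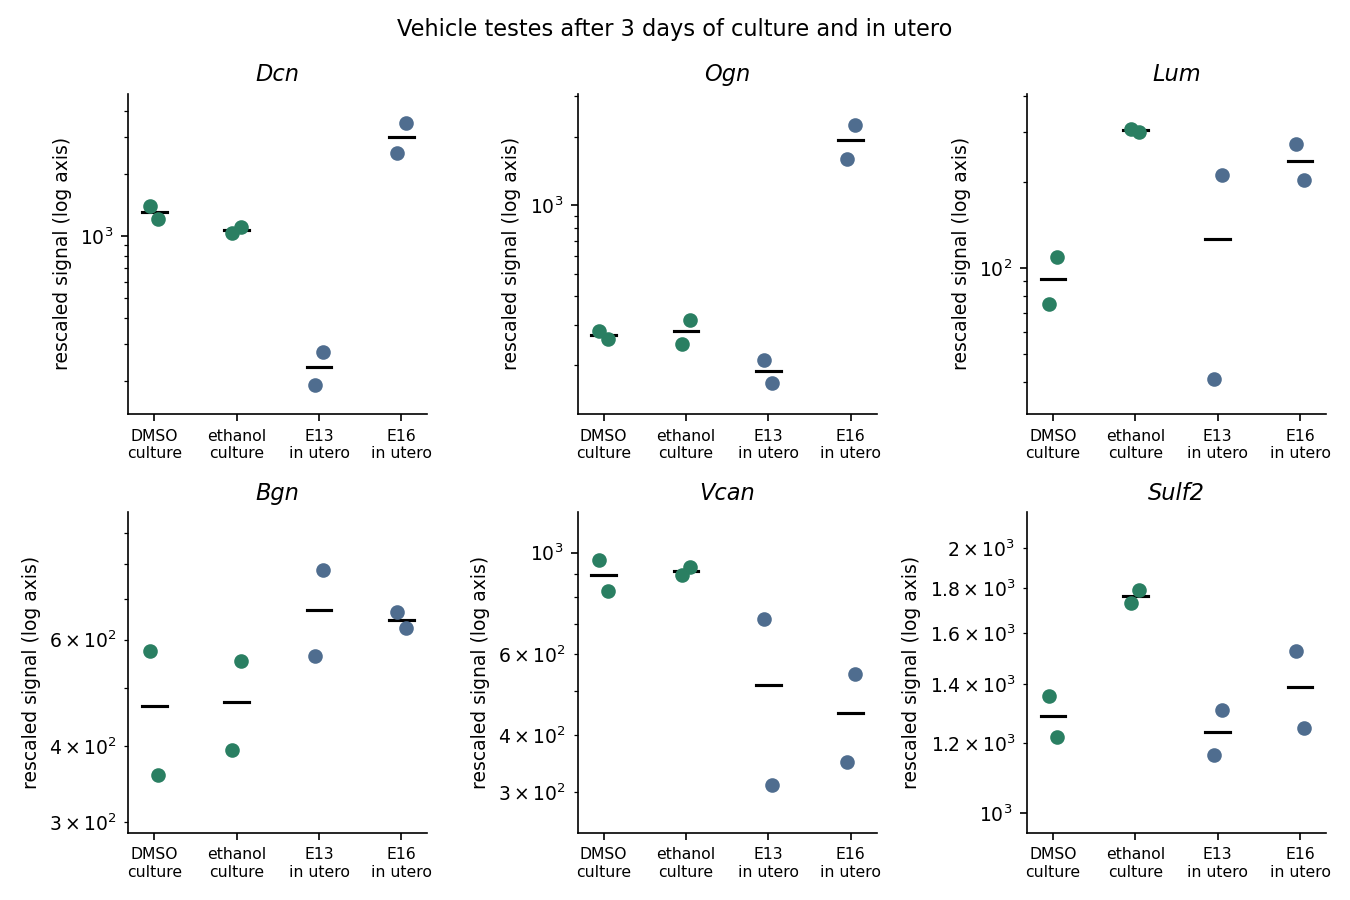
Signal of the 6 genes after all arrays were brought to 1 trimmed mean (y axis, log axis that differs between panels) in cultured testes with DMSO or ethanol alone and in vehicle testes of E13 and E16 in utero (x axis), with 1 point per array and a bar at the mean. Cultured Dcn lies between E13 and E16, cultured Ogn near E13, and cultured Vcan above both.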

How the data were processed

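Signal intensities were made by the authors with MAS5 in GCOS, per the submitters' processing notes, whose versions those notes do not give. The deposited values share a trimmed mean (2% left out at each end), which was 210.1 in utero, 218.1 in the culture with vinclozolin and 107 in that with flutamide. Of 31099 probe sets, 57 controls were left out, and 22526 that reached the 40th percentile of their array on at least 2 of the 20 arrays were tested. Of 31042, 20826 had 1 symbol in the platform annotation, 436 several and 9780 none.

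The log2 of signal plus 16 was fitted with limma 3.58.1 in R 4.3.3, 1 mean per group, all arrays in 1 fit (residual degrees of freedom 10), with a variance trend. Two-sided p-values were adjusted by Benjamini-Hochberg over all tested probe sets (threshold 0.05), and intervals are at 95%. The median SE of a difference between 2 groups was 0.24, and the number of arrays limits the precision. The fit was tested on simulated data. Alternatives were other pseudocounts, filters, normalization, a replicate block, and arrays left out. Same-numbered arrays were not treated as pairs.

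The 6 genes and all lists were chosen with earlier results of these data known. All member probe sets were named, beside up to 4 genes of smallest p per list in E16 minus E13, the 3 genes most correlated with each member, genes that make up a count of 6 or fewer, and markers.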

Additional observations from a re-analysis of the deposited data

How the results depend on the processing

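Of 357 alternative counts of called probe sets or genes, 345 were within 1.5 times the reported count. These include the treatment comparisons, with 0 of the 12 called, where 0 against 0 was scored as within that range. The 345 thus does not measure how stable the stage counts were. Of 429 alternative values of the 13 called changes, 408 kept direction and call, 21 lost the call and 0 reversed. The calls of Dcn and Ogn were lost in none of their 33 alternatives each, that of Sulf2 from E14 to E16 in 15 of 33 (-0.51 to -0.19), that of Lum in 4 of 33 and that of Bgn from E13 to E14 in 2 of 33. The count from E13 to E14, 1, was 2 after quantile normalization, 2 with a replicate block, 0 on vehicle arrays only, 4 on vinclozolin arrays only and 2 without both E13 arrays numbered 1 and E14 vehicle replicate 1, a set chosen after seeing the data. With each array left out in turn it was 1 to 5, and 2 without E13 vehicle replicate 2 or E14 vinclozolin replicate 2. Such counts were 5 to 8 from E14 to E16, 5 to 7 from E13 to E16, 0 to 5 for vinclozolin at E14, and 0 in the other treatment comparisons. The genes above E13 in culture, by the probe set of highest mean, were 3, but 1 with values as deposited, and 3 to 5 with arrays left out (5 without E13 vehicle replicate 2). The cause of these shifts was not tested. Deviations of same-numbered vinclozolin and vehicle arrays correlated at 0.60 at E13, -0.05 at E14 and -0.11 at E16. In the cultures they correlated at 0.12 with vinclozolin and 0.00 with flutamide. At E13 same-numbered arrays thus deviated together, which the fit without a block left in its spread. The labels do not say that same-numbered arrays belong together, and the numbers were not read as pairs. The block changed no other call count by over 1.5 times, and with the E16 pairing crossed, also added after seeing the data, 0 of the 12 were called at E16 and on average. With 2 arrays per group, differences inside the stated intervals were not detectable.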
